A study of Arabidopsis thaliana with 12 samples.

Results

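In roots of Arabidopsis thaliana, 89 of the 26568 genes of the count table were read in every library of Or-1, an NH4+-tolerant ecotype, and at the limit of detection in those of Rak-2, an NH4+-sensitive ecotype. The genes were chosen by their raw counts, with at least 10 reads in each of the 6 Or-1 libraries and at most 3 reads in each of the 6 Rak-2 libraries. They were 0.509% of the 17489 genes with at least 10 reads in every Or-1 library. The same limits applied with the ecotypes exchanged held for 110 genes. Since the ecotype difference chose the genes, it is given below as a description and without a test.

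The libraries were made from roots of seedlings kept 5 d on NO3- and then for 1 d on NO3-, given as Ca(NO3)2, or on NH4+, given as (NH4)2SO4, each salt at 1 mM, and the methods of the study add 3 d without nitrogen between these steps. There were 4 groups of 3 biological replicates, which are Or-1 under NH4+, Or-1 under NO3-, Rak-2 under NH4+ and Rak-2 under NO3-. The sample labels call the ecotypes 2 and 16 and give their NH4+ tolerance, and each group had 1 natural accession as its only genotype. The libraries held between 16005610 and 22388738 counted reads. Of 10 root marker genes, 9 had at least 10 reads in all 12 libraries, and the seed storage genes CRC and OLE1 were at 0. Of 6 leaf genes, 3 also had at least 10 reads in all 12 libraries. The summed level of the 6 leaf genes is given below and differed widely between libraries of both ecotypes.

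Natural accessions of Arabidopsis differ in which genes they carry and in which of them are transcribed. Genes of the immune receptors with a nucleotide-binding site and leucine-rich repeats (NLR proteins), which recognise pathogen effectors inside the cell, are known for this variation and often stand in clusters of related copies. Genes of small lectins, of cytochrome P450 enzymes and of the DC1 domain, a cysteine- and histidine-rich domain related to the zinc-binding C1 domain, also form large families with many neighbouring copies. A count is the number of reads assigned to a gene model, from the reference or newly assembled. A gene that Rak-2 lacks, a gene whose sequence has diverged and a gene that is not transcribed therefore cannot be told apart here. In root RNA, fewer cells that express a gene and less RNA per cell cannot be told apart either.

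Of the 89 genes, 36 had no read in any Rak-2 library, 30 had between 1 and 3 reads in the 6 Rak-2 libraries together, and 23 had more, with 9 reads as the highest sum. All 89 genes together had 198 reads in Rak-2 and 103571 in Or-1. The Rak-2 NH4+ replicate 3 library held 58 of the 198 reads and had a read for 31 of the genes, which was more than in any other Rak-2 library, and the Rak-2 NH4+ replicate 2 library held the fewest with 21. For the 36 genes at 0, the level in Or-1 was between at least 5.2-fold and at least 227.5-fold higher under NH4+ and between at least 4.7-fold and at least 170.6-fold higher under NO3-. These bounds set 3 reads in the smallest scaled Rak-2 library against the Or-1 mean, and cover counting error alone, because the counts are reads and not molecules. The difference was at least 10-fold under both nitrogen sources for 23 of the 36.

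**Figure D1:**
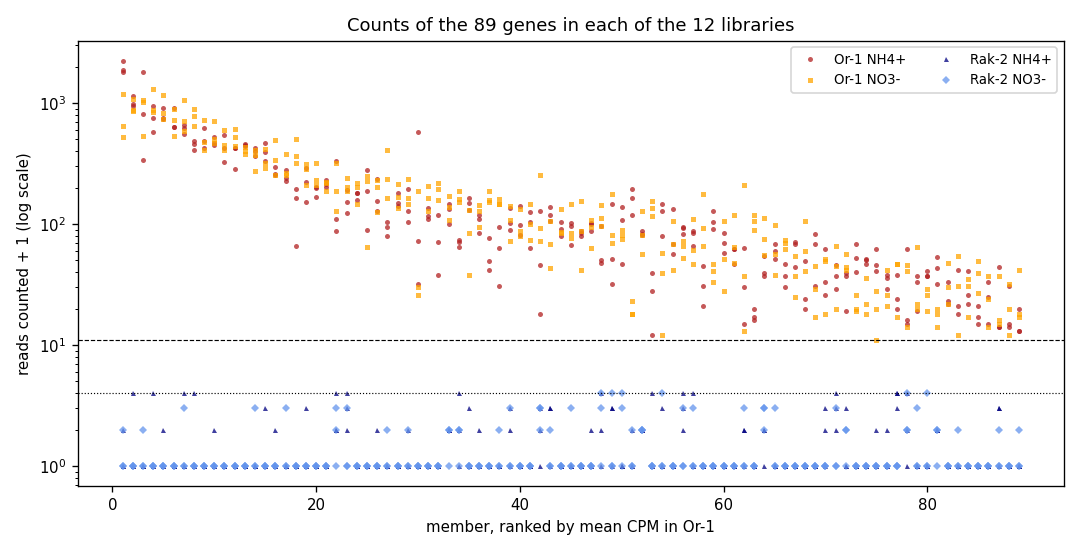
Each of the 89 genes is a position on the x axis, ranked by its mean scaled count in Or-1, and the y axis gives reads counted plus 1 on a log scale, with 3 points per group. The dashed line marks 10 reads and the dotted line 3 reads, the limits that chose the genes. The Or-1 points fall from a highest count of 2229 at the left to a lowest count of 10 toward the right, while the Rak-2 points lie at 0 to 3 reads throughout.

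The limits cut through a continuous range. Just inside, newGene_1489 had 10 reads in its lowest Or-1 library, and AT2G25510 had 11, while CYP705A13 and AT1G34050 reached 3 reads in a Rak-2 library. Just outside, AT2G02620, a DC1 domain gene, and AT2G06960 had 9 reads in their lowest Or-1 library and none in Rak-2. On the Rak-2 side, PP2-A8 and AT1G34315 were left out by 4 reads in a single library, although their Or-1 counts were at least 1185 and 822.

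The genes that met these limits were weakly expressed for this tissue. Their median level in Or-1 was 4.68 counts per 1000000 reads (CPM, with libraries scaled by the TMM method), with a range from 0.953 to 68.1, against a median of 24.2 CPM over the 17489 genes read in every Or-1 library. Per kilobase of gene length the median was 4.04 against 12.5 CPM per kb, and 13 of the 89 genes lay above that median. They also varied more between replicates, with a median coefficient of variation of 22.4% under NH4+ and 27.4% under NO3- against 12.2% and 14.4% over the same 17489 genes. The members had fewer reads than these genes, and no comparison with genes of equal level was made. Their level rests on the same Or-1 counts that the rule used. The limit on raw Rak-2 reads also left out strongly read genes. Among these were PP2-A8 and AT1G34315, with medians of 1826 and 1037 reads in Or-1. The rule may therefore have lowered the level of the set, which was not tested. Together the members took between 0.0781% and 0.095% of the reads of an Or-1 library.

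Of the 89 genes, 55 carried an identifier of the public annotation and 34 were genes newly assembled by the authors. All 55 were protein-coding. They were spread over the nuclear chromosomes, with 16 on chromosome 1, 6 on chromosome 2, 7 on chromosome 3, 12 on chromosome 4 and 14 on chromosome 5. The newly assembled genes were 38.2% of the set, and among the 260 newly assembled genes read in every Or-1 library 13.1% were in the set, against 0.319% of the 17229 annotated genes. The set of 110 genes with the ecotypes exchanged held 25 newly assembled genes, or 22.7%. Annotated genes can be listed without a read, although not all of them are in the count table, while a newly assembled gene needs reads to be built. Which libraries gave those reads is not stated, so the 13.1% and the 0.319% are not shares of like sets.

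Immune receptors made up the largest named family together with the DC1 domain proteins. Of the 92 NLR genes read in every Or-1 library, 5 were in the set, or 5.43%, which is to be read beside the 0.319% of all annotated genes. The set of 110 genes with the ecotypes exchanged held 6 NLR genes and 2 DC1 domain genes. It also held 4 receptor-like kinase and leucine-rich repeat genes and 3 lectin genes, and no cytochrome P450 gene. AT5G35450, a receptor with a coiled-coil domain, had the highest level of the 5, with 988, 950 and 1148 reads under NH4+ and 860, 882 and 1087 under NO3- in Or-1. In Rak-2 it had 3 reads in NH4+ replicate 3 and none elsewhere. Its per-length level was 11.1 CPM per kb.

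AT4G19500, a receptor with a Toll-interleukin (TIR) domain, had 481, 422 and 623 reads under NH4+ and 405, 473 and 724 under NO3- in Or-1, and no read in Rak-2. Its level was at least 159.9-fold higher in Or-1 under NH4+ and at least 126.4-fold higher under NO3-. The other 3 were TIR-class genes at lower levels, namely AT5G36930 with 145 to 216 reads, AT5G49140 with 41 to 131 reads and RLM3 with 46 to 136 reads in Or-1. RLM3, named for resistance to the fungus Leptosphaeria maculans, was the only one of these 3 with reads in Rak-2, 2 and 3 in its NO3- replicates 1 and 3. None of the 5 responded to NH4+ in Or-1 by the test described below, where their log2 fold changes had a median of 0.10. Of the 112 NLR genes tested, the members included, 17 rose and 1 fell. Among all genes tested 5.26% rose and 3.60% fell. The 5 members are too few to show whether they differed from their family in this.

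The DC1 domain genes were 5 of the 93 read in every Or-1 library, or 5.38%, and this family was added to the list of families after the counts had been seen. They were AT3G11370, AT2G44390, AT3G43890, AT4G10370 and AT4G11547. The first 4 had no read in any Rak-2 library, and AT4G11547 had 6 in all. Their per-length levels in Or-1 lay between 1.56 CPM per kb for AT4G10370 and 7.09 CPM per kb for AT4G11547.

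Genes for proteins at the cell surface included WAKL2. This kinase is related to the wall-associated kinases that bind pectin, and it had 442, 457 and 450 reads under NH4+ and 404, 380 and 429 under NO3- in Or-1, a narrow range, and none in Rak-2. Its level was at least 141.8-fold higher in Or-1 under NH4+ and at least 97.8-fold higher under NO3-. The leucine-rich repeat genes AT2G15042 and AT1G35710 had 32 to 128 and 51 to 94 reads in Or-1. With WAKL2 they were 3 of the 320 receptor-like kinases and leucine-rich repeat genes read in every Or-1 library, or 0.938%.

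Lectins were represented by PP2-A7, a member of the phloem protein 2 lectins of sieve tubes, and by AT1G60110, a mannose-binding lectin, out of 59 lectin and jacalin genes read in every Or-1 library. AT1G60110 had 422, 423 and 284 reads under NH4+ and 524, 438 and 609 under NO3- in Or-1 and none in Rak-2. Enzymes of secondary metabolism were CYP705A13, CYP89A6, the terpene synthase gene AT4G20210 (TPS08) and TT10, the laccase that oxidises flavonoids in the seed coat. CYP705A13 had 483, 406 and 461 reads under NH4+ and 642, 784 and 887 under NO3- in Or-1, where the groups did not overlap. It did not pass the test of the NH4+ response, with a log2 fold change of -0.80 (SE 0.26) and an adjusted p of 0.0671 by edgeR's quasi-likelihood test. With the replicate number as a block the adjusted p of this test was 0.0516. In the fit of the Or-1 libraries alone it was 0.00521, and by DESeq2's Wald test 2.7e-06. In the last 2 fits the change stayed within the limit of 1 on the log2 scale, so CYP705A13 was not called there either.

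Other members, all weak, included DMT2, a homolog of the cytosine methyltransferase that maintains DNA methylation, FDM2, of a family that acts in RNA-directed DNA methylation, and TIF3C2, a copy of a subunit of the translation initiation factor eIF3. These genes had 46 to 108, 31 to 176 and 13 to 61 reads in Or-1. No F-box gene of 148, no transporter gene of 502 and no glycosyltransferase gene of 120 read in every Or-1 library was in the set. At the 0.319% share of all annotated genes, families of these sizes would hold few members or none. The set held 2 of 971 transcription factor genes, or 0.206%, AT2G19365 and AT4G37850. Proteins without a known function accounted for 11 of the annotated genes.

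By CPM the 10 highest genes were AT5G45095, AT5G35450, newGene_335, newGene_326, newGene_1413, newGene_356, AT1G34050, CYP705A13, AT4G19500 and newGene_122, so 5 of the 10 were newly assembled genes. Per length, AT5G45095 was at 40.3, newGene_326 at 37.4 and newGene_335 at 26.8 CPM per kb. The newly assembled genes were short, with a median of 1140.5 bases against 1690 for the annotated ones. newGene_335 had 1805, 811 and 335 reads under NH4+ and 536, 1021 and 1052 under NO3-, so that its highest and its lowest library were both from NH4+. newGene_356 had 627, 637 and 905 reads under NH4+ and 537, 716 and 894 under NO3- and none in Rak-2, and its level was at least 227.5-fold higher under NH4+. The newly assembled genes could not be placed in the reference annotation.

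The genes around the members show how local the difference was. A neighbour here is the next gene of the count table in chromosome order, so annotated genes missing from the count table were skipped. Only PP2-A7 and AT5G45095 were neighbours of each other, so that 3.64% of the 55 placed members had a member beside them, against 0.384% of the 17168 other genes read in every Or-1 library. Of the 55, 22 had both neighbours at 10 reads or more in every Rak-2 library, 20 had such a neighbour on 1 side and 13 on neither side. The 22 were 40% of the placed members, and the share among the other genes was 53%. Of the 108 genes beside a member that were not members themselves, 27 had at most 3 reads in all 12 libraries, and AT2G15327, beside AT2G15340, was in the set with the ecotypes exchanged.

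The ecotypes were compared for these neighbours with edgeR's quasi-likelihood test, a comparison chosen after the members were known. A gene was called when its adjusted p was under 0.05 and its log2 fold change exceeded 1 in either direction. Of 73 neighbours tested, 17 were higher in Or-1 under NH4+, or 23.3%, where 6.55% of all genes tested were higher. Under NO3- 13 were higher, or 17.8%, where 4.35% of all genes were. Lower in Or-1 were 6 under each nitrogen source, or 8.22%, beside 5.66% of all genes under NH4+ and 4.29% under NO3-. There were 9 neighbours called higher under both nitrogen sources.

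The 17 neighbours higher under NH4+ lay beside 14 members. Of all neighbours, 5 overlapped their member in the annotation and 9 were its closest paralog, and strand-specific counting is not stated, so that reads could be shared. Without these genes 14 of 63 were higher under NH4+ and 9 of 63 under NO3-. When each of the 12 libraries was left out in turn, 73 or 74 neighbours were tested. Between 15 and 19 were higher under NH4+, or 20.3% to 25.7%, where 5.01% to 7.39% of all genes were. Under NO3- between 12 and 14 were higher, or 16.2% to 18.9%, where 3.65% to 4.41% of all genes were. Further from the members the share of genes higher in Or-1 under NH4+ was 12.7% at 2 genes, 14.3% at 3 genes and 5.41% at 4 genes of distance, and between 3.85% and 9.59% from 5 to 10 genes. Under NO3- it was 7.59%, 7.79% and 1.35% at 2, 3 and 4 genes, and at most 6.58% further away.

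**Figure D2:**
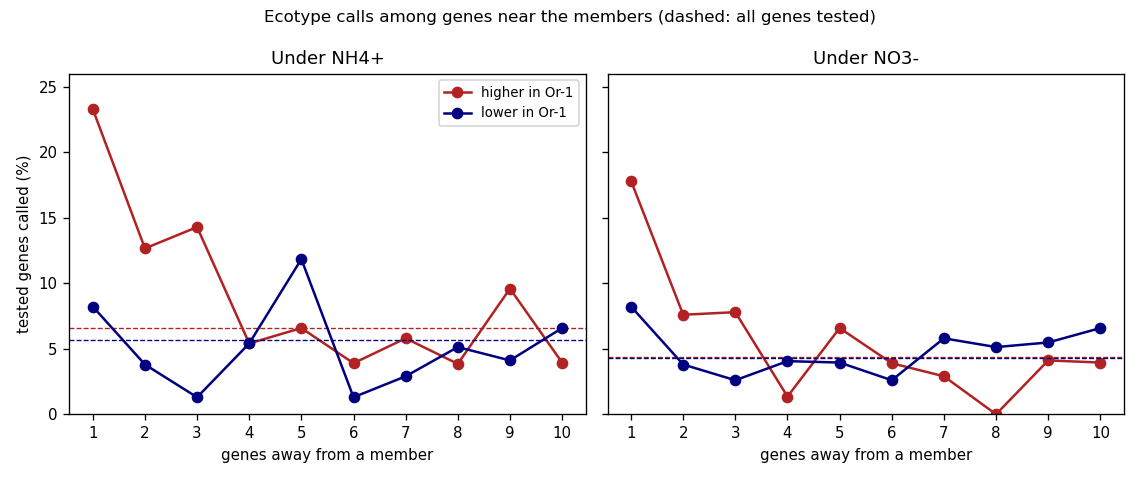
The x axis gives the distance from a member in genes, and the y axis the percentage of tested genes that were higher (red) or lower (blue) in Or-1, under NH4+ at the left and NO3- at the right. Dashed lines are the percentages over all genes tested. The red points start at 23.3% and 17.8% beside a member and lie at 5.41% and 1.35% at 4 genes of distance. The blue points start at 8.22% in both panels.

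The longest stretch was on chromosome 5, where PP2-A7 and AT5G45095 follow the related lectin genes PP2-A8 and PP2-A6. PP2-A7 had 330, 392 and 466 reads under NH4+ and 413, 317 and 290 under NO3- in Or-1, and 2 reads in the Rak-2 NH4+ replicate 3 library alone. AT5G45095, a gene of unknown function and the highest of the set, had 2229, 1880 and 1811 reads under NH4+ and 523, 649 and 1195 under NO3-, with 1 read in each of 2 Rak-2 libraries.

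PP2-A8 had 1185 to 3078 reads in Or-1 and 0 to 4 in Rak-2. PP2-A6 had 1612 to 2634 reads in Or-1, and in Rak-2 11 reads in NH4+ replicate 3, 1 in NO3- replicate 3 and none in the other 4 libraries. Both exceeded the limit on Rak-2 counts, in the library that held the most reads of the members. On the left of the stretch, the TIR-class NLR gene AT5G45060 was read in both ecotypes, with 942 to 1371 reads in Or-1 and 236 to 348 in Rak-2, and was higher in Or-1 by a log2 fold change of 2.07 (SE 0.10, adjusted p = 1.2e-07, edgeR's quasi-likelihood test) under NH4+.

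On the right, BRG1 (AT5G45100), a RING domain gene known from resistance to Botrytis, had 498 to 1704 reads in Or-1 and 456 to 1868 in Rak-2. Its ecotype difference under NH4+ was -0.17 on the log2 scale (SE 0.19, adjusted p = 0.538 by edgeR's quasi-likelihood test), with an adjusted p of 0.114 under NO3-. The stretch with at most 11 reads in any Rak-2 library covered 4 genes in a row in the count table, between a pair of genes read in both ecotypes.

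AT4G19500 stood in a similar setting on chromosome 4. The next gene, AT4G19510, is also a TIR-class NLR gene, with 554 to 837 reads in Or-1 and 0 to 5 in Rak-2. VPS54, on the other side, codes for a subunit of a tethering complex of the Golgi and had 1680 to 2111 reads in Or-1 and 413 to 800 in Rak-2. It was higher in Or-1 by 2.04 under NH4+ and 1.27 under NO3- on the log2 scale (SE 0.16 for each, adjusted p = 6.5e-06 and 0.000192, edgeR's quasi-likelihood test). The third TIR-class gene of the row, AT4G19520, was read in both ecotypes and was higher in Or-1 under NH4+ by 1.55 (SE 0.35, adjusted p = 0.00832 by the same edgeR test). Under NO3- its difference was 0.34 (SE 0.35, adjusted p = 0.616, edgeR) and it was not called.

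**Figure D3:**
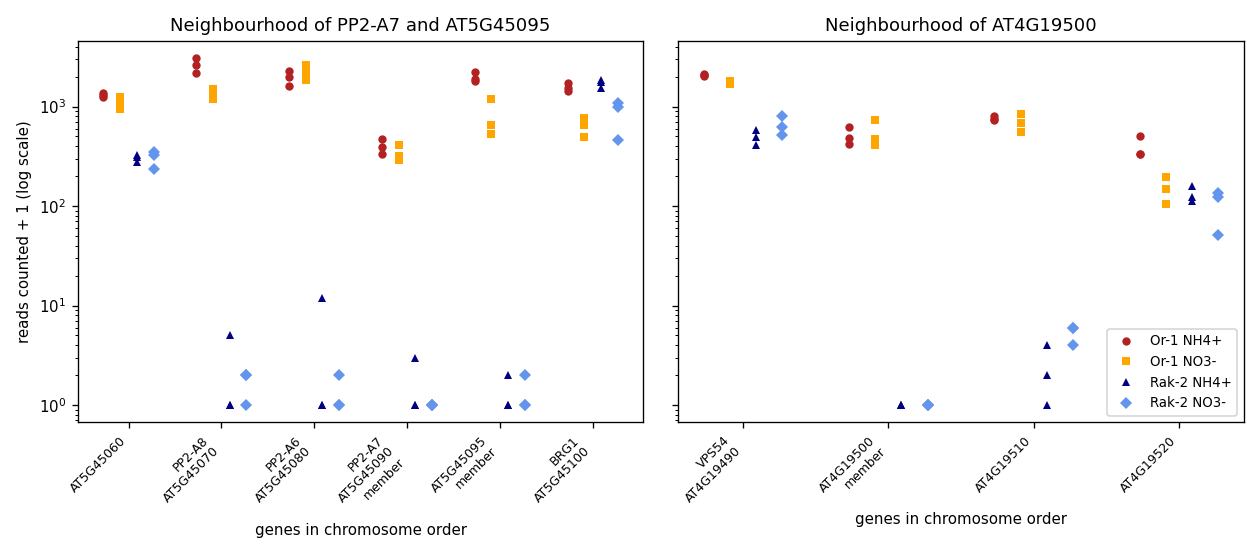
The x axis of each panel gives genes in chromosome order and the y axis reads counted plus 1 on a log scale, with 3 points per group. At the left, PP2-A8, PP2-A6, PP2-A7 and AT5G45095 have at least 290 reads in every Or-1 library and at most 11 in every Rak-2 library, between AT5G45060 and BRG1, which are read in both ecotypes. At the right, AT4G19500 and AT4G19510 lie between VPS54 and AT4G19520.

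In some places the neighbour ran the opposite way. AT5G35450 stood beside AT5G35460, which had 17, 27 and 31 reads under NH4+ and 22, 12 and 20 under NO3- in Or-1, against 820 to 1127 in Rak-2. AT5G35460 had a log2 fold change of -5.21 in Or-1 against Rak-2 under NH4+ (SE 0.25, adjusted p = 1.5e-07, edgeR's quasi-likelihood test). AT4G11547 lay between 2 further DC1 genes, of which AT4G11540 had 1 to 8 reads in Or-1 and 27 to 56 in Rak-2, and AT4G11550 had 173 to 257 in Or-1 and 11 to 27 in Rak-2.

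AT1G34317, an uncharacterized gene with 17 to 61 reads in Or-1, was beside AT1G34315, which had 822 to 1312 reads in Or-1 and 0 to 4 in Rak-2. AT1G07680 was beside AT1G07690, which in Rak-2 had 0 reads in all 3 NH4+ libraries and 23, 32 and 8 under NO3-. In Or-1 AT1G07690 had 31, 19 and 12 reads under NH4+ and 38, 29 and 50 under NO3-.

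For some members a related gene was read in Rak-2. Of the 55 annotated members, 48 had a related protein in the genome, and the closest had a median identity of 65.9%, from 34.8% to 99.8%. In 43 cases this paralog was in the count table, and in 24 it had at least 10 reads in every Rak-2 library. In 9 cases the paralog stood next to the member. Of 27 distinct paralogs tested that were not members, 5 were higher and 4 lower in Or-1 under NH4+, or 18.5% and 14.8% against 6.55% and 5.66% of all genes tested. Under NO3- 5 were higher and 5 lower, or 18.5% each against 4.35% and 4.29%.

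For 11 members the paralog was at least 80% identical over at least 80% of the protein, so that reads of the copies may have been divided between them in the counting. AT1G05090 was 99.8% identical over its 403 residues to AT4G20720, which had 109 to 201 reads in Or-1 and 236 to 427 in Rak-2, and was lower in Or-1 under both nitrogen sources with log2 fold changes of -1.11 and -1.21 (SE 0.16 for each, adjusted p = 0.000527 and 0.000342 by edgeR's quasi-likelihood test). AT1G05090 itself had 37 to 97 reads in Or-1 and 2 in a single Rak-2 library.

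AT5G39180, a germin-like protein of the cupin family, was 99.5% identical to AT5G39150. AT5G39180 had 31, 71 and 572 reads under NH4+ and 25, 29 and 186 under NO3- in Or-1, and none in Rak-2. AT5G39150 had 38, 150 and 1004 and then 29, 54 and 314 in Or-1, and 63 to 3148 in Rak-2. Both genes were highest in replicate 3 of each Or-1 group.

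FDM2 was 92% identical to FDM1, which had 739 to 1519 reads in all libraries. AT1G32010 and AT5G38190, of the myosin heavy chain-like proteins, were each other's closest paralog at 84.1% identity, and both were members. AT1G32010 had 84, 69 and 57 reads under NH4+ and 104, 50 and 27 under NO3-, and AT5G38190 had 87, 84 and 79 and then 155, 87 and 41, with none in Rak-2 for either. For AT5G49140 the closest paralog in the protein comparison, AT4G11170, was another TIR-class NLR gene with the opposite pattern, with 85 to 280 reads in Rak-2 and none in Or-1. The 2 proteins were 51.6% identical.

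The NH4+ response within Or-1 was not used to choose the genes and was tested for all 89. By edgeR's quasi-likelihood test 10 of the 89 were called, or 11.2%, where 8.86% of the 19327 genes tested were called. There were 4 higher under NH4+, or 4.49% against 5.26% of all genes, and 6 lower, or 6.74% against 3.60%. The median log2 fold change of the 89 was -0.16, beside -0.04 for all genes tested, and 62.9% against 54.4% were negative.

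For 32 of the 89 genes the NH4+ and the NO3- libraries did not overlap, or 36%, where this was so for 36.5% of all genes tested. Of these, 13 were higher and 19 lower under NH4+, or 14.6% and 21.3%, beside 17.5% and 19.0% of all genes. With the replicate number as a block 15 of the genes were called, 5 higher and 10 lower, or 16.9%, where the same fit called 10.2% of all genes tested, 5.86% higher and 4.34% lower. When each Or-1 library was left out in turn, between 3 and 8 were called, or 3.37% to 8.99%, where these fits called 6.83% to 8.33% of all genes tested. The count was 3 without NH4+ replicate 2, 4 without NO3- replicate 1, 5 without NO3- replicate 3, and 6 without NH4+ replicate 3 or NO3- replicate 2, and in each of these fits the share of the members was below that of all genes. The 6 leaf genes were of photosynthesis and of trichomes, with the trichome gene GL1 at 0. Their summed level in Or-1 was 208, 4.31 and 305 CPM in the NH4+ libraries and 479, 157 and 712 CPM in the NO3- libraries. In Rak-2 it was 393, 226 and 1008 CPM under NH4+ and 11.65, 90.5 and 423 CPM under NO3-. The highest value was in Rak-2 NH4+ replicate 3, which also held the most reads of the members among the Rak-2 libraries. The part of leaf transcripts in the NH4+ response and in the Rak-2 counts was not tested.

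**Figure D4:**
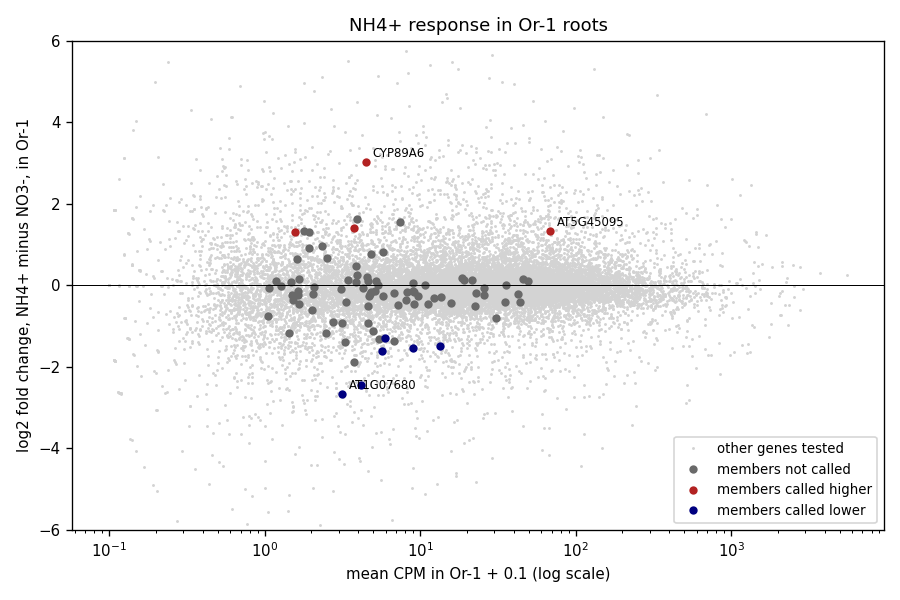
The x axis gives the mean CPM in Or-1 plus 0.1 on a log scale and the y axis the log2 fold change between NH4+ and NO3- in Or-1, for the 89 members and all other genes tested. The 4 members called higher are red, the 6 called lower are blue and the others dark grey, and 28 other genes lie outside the y axis. Beyond 1 in either direction lie 21 members, and CYP89A6 at 3.03 and AT1G07680 at -2.66 are the farthest from it.

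Of the genes that rose, CYP89A6 changed most. It had 193, 162 and 118 reads under NH4+ and 22, 17 and 17 under NO3-, and 1 read in each of 2 Rak-2 libraries. The lowest NH4+ library was far above the highest NO3- library, and the log2 fold change was 3.03 (SE 0.42, adjusted p = 0.00061, edgeR's quasi-likelihood test). It was called in all 15 alternative analyses. The P450 genes on both sides of it were read in both ecotypes, and CYP89A5, 92.8% identical to it, also rose in Or-1, from 153 to 174 reads under NO3- to 554 to 679 under NH4+, with a log2 fold change of 1.88 (SE 0.23, adjusted p = 0.000276 in the same edgeR fit). CYP89A7 had 79 to 263 reads under NH4+ and 64 to 116 under NO3- and was not called, with an adjusted p of 0.248.

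AT5G45095 rose by a log2 fold change of 1.33 (SE 0.25, adjusted p = 0.00379 by edgeR's quasi-likelihood test) and was also called in all 15 alternatives. Its mean was 97.6 ± 10.2 CPM under NH4+ and 38.7 ± 12.5 CPM under NO3- (SD, n = 3). Its neighbour BRG1 rose by 1.27 (SE 0.19, adjusted p = 0.00101 in the same edgeR fit) in Or-1. PP2-A7, on the other side, had a log2 fold change of 0.17 (SE 0.31) and was not called.

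AT2G15042, a leucine-rich repeat gene, had 102, 90 and 128 reads under NH4+ and 32, 46 and 40 under NO3-. The groups were well apart, with a log2 fold change of 1.40 (SE 0.31, adjusted p = 0.0221 by edgeR's quasi-likelihood test), but the call was kept in 1 of the 6 analyses that left out an Or-1 library. The newly assembled newGene_1414 had 31, 52 and 42 reads under NH4+ and 17, 19 and 13 under NO3-, with a log2 fold change of 1.3 (SE 0.39, adjusted p = 0.0419, edgeR). It was the only called gene among the 34 newly assembled members, was likewise kept in 1 of those 6 analyses, and was not called in the fit of the Or-1 libraries alone.

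Of the genes that fell, AT1G07680, an uncharacterized gene, changed most. It had 16, 19 and 15 reads under NH4+ and 117, 89 and 104 under NO3- and none in Rak-2, and its log2 fold change was -2.66 (SE 0.34, adjusted p = 0.00201, edgeR's quasi-likelihood test), called in all 15 alternatives. Its closest paralog AT5G23903, 40.2% identical over 117 residues, fell likewise in Or-1, with 7, 13 and 8 reads under NH4+ and 115, 104 and 132 under NO3-, a log2 fold change of -3.65 (SE 0.52, adjusted p = 0.000775 in the same edgeR fit). AT5G23903 had 0 to 6 reads in Rak-2.

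AT2G25510 had 38, 11 and 27 reads under NH4+ and 153, 116 and 134 under NO3-, with a log2 fold change of -2.45 (SE 0.57, adjusted p = 0.0187, edgeR). AT5G66052 had 78, 94 and 103 reads under NH4+ and 163, 236 and 406 under NO3-, with -1.53 (SE 0.34, adjusted p = 0.0142, edgeR). Both code for uncharacterized proteins, their groups did not overlap, and both calls were kept in 3 of the 6 analyses that left out an Or-1 library.

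AT1G45015, a protein with an MD-2-related lipid recognition domain, had 193, 163 and 65 reads under NH4+ and 319, 364 and 502 under NO3-. Its log2 fold change was -1.50 (SE 0.39, adjusted p = 0.0419 by edgeR's quasi-likelihood test), and the call was kept in 1 of the 6 analyses. Its lowest NH4+ library was replicate 3.

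**Figure D5:**
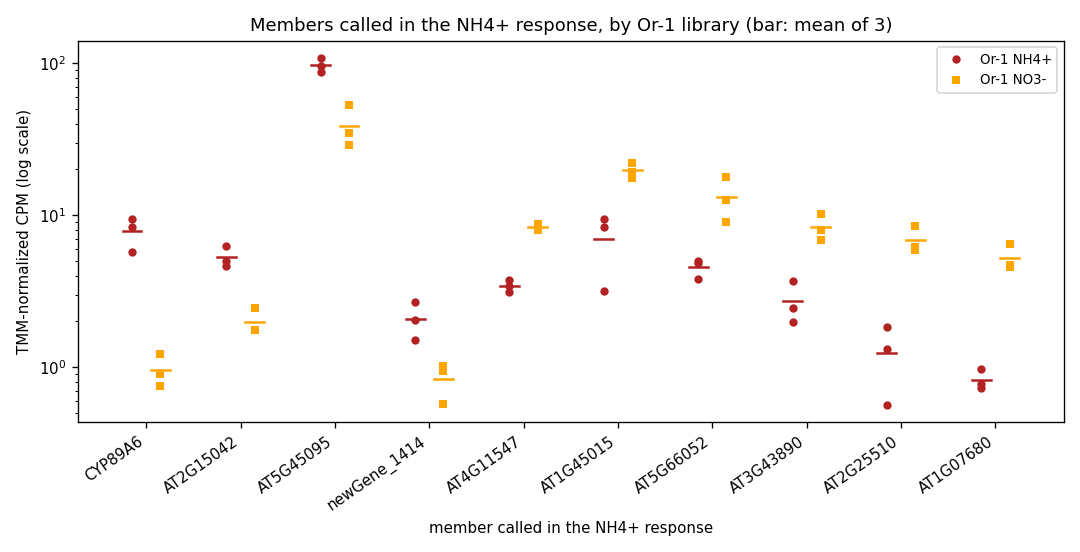
The x axis names the 10 members called in the NH4+ response and the y axis gives TMM-normalized CPM on a log scale, with a point per Or-1 library and a bar at the mean of 3. In every one of the 10 genes the NH4+ points and the NO3- points do not overlap. AT5G45095 is the highest, at means of 97.6 and 38.7 CPM, and the means of AT1G07680 are 0.827 and 5.26 CPM.

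All 5 DC1 domain members had a negative log2 fold change, and 2 of them were called lower in the fit without the replicate block. AT3G43890 had 76, 48 and 41 reads under NH4+ and 185, 151 and 156 under NO3-, with a log2 fold change of -1.62 (SE 0.33, adjusted p = 0.0164, edgeR's quasi-likelihood test), and this call was kept in 2 of the 6 analyses that left out an Or-1 library. AT4G11547 had 64, 73 and 70 reads under NH4+ and 159, 151 and 187 under NO3-, with -1.29 (SE 0.37, adjusted p = 0.037, edgeR), and this call was lost whenever an Or-1 library was left out. In both genes all NO3- libraries were above all NH4+ libraries.

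AT4G10370 had 44, 30 and 20 reads under NH4+ and 176, 65 and 91 under NO3-, with a log2 fold change of -1.88 (SE 0.52) and an adjusted p of 0.0514 by edgeR, which was 0.0192 with the replicate block. AT2G44390 had 118, 70 and 37 reads under NH4+ and 217, 158 and 192 under NO3-, with -1.37 (SE 0.43) and an adjusted p of 0.0765 by edgeR, which was 0.0269 with the block. AT3G11370 had 203, 199 and 167 reads under NH4+ and 317, 210 and 230 under NO3-, with -0.46 (SE 0.27). Of the 111 DC1 genes tested, the members included, 19 fell, or 17.1% against 3.60% of all genes tested, 2 rose and the others were not called.

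The relatives of these genes did not all move alike. AT2G44380, beside AT2G44390 and 73% identical to it, fell in Or-1 by a log2 fold change of -1.70 (SE 0.26, adjusted p = 0.00118 by edgeR's quasi-likelihood test). AT1G69150, 84.5% identical to AT3G43890 over 504 residues, rose, with 115, 160 and 320 reads under NH4+ and 56, 56 and 79 under NO3-, a log2 fold change of 1.62 (SE 0.33, adjusted p = 0.00684, edgeR). AT2G02620, the DC1 gene that missed the count limit in Or-1 by 1 read, fell by a log2 fold change of -2.26 (SE 0.44, adjusted p = 0.014, edgeR).

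TT10 had 145, 126 and 79 reads under NH4+ and 57, 38 and 11 under NO3-. Its groups did not overlap, and its log2 fold change of 1.63 (SE 0.70) had an adjusted p of 0.149 by edgeR, which was 0.0305 with the replicate block. AT1G65370, a TRAF-like gene, had 45, 17 and 126 reads under NH4+ and 71, 91 and 254 under NO3-, where the groups overlapped while each NO3- library was above the NH4+ library of its number. Its adjusted p was 0.267 by edgeR and 0.0457 with the block. AT1G52560, a small heat shock protein gene, had 14, 62 and 29 reads under NH4+ and 209, 36 and 12 under NO3-, a spread within the groups that was larger than the difference between them.

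Among 40 genes taken as examples of known natural variation between accessions, 32 were in the count table, and RLM3 was the only one in the set. QQS, an orphan gene that affects the partition between starch and protein, had 15, 12 and 23 reads under NH4+ and 7, 38 and 94 under NO3- in Or-1, and 1 and 3 reads in 2 of the Rak-2 libraries, so that it was left out by a single Or-1 library. FRI, the flowering-time regulator, had 326 to 443 reads in Or-1 and 40 to 91 in Rak-2. The other 8 genes of the list were not in the count table and so could not enter the set. Among them were the NLR genes RPP8, RPP5 and SNC1, the closest paralogs of AT5G35450, AT4G19500 and RLM3.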

How the data were processed

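RNA-seq libraries of Arabidopsis roots were made with the NEBNext Ultra RNA kit and sequenced on an Illumina HiSeq platform. The authors deposited raw counts per gene, whole numbers without normalization, with a gene length in bases (unit other) for 12 libraries of 16005610 to 22388738 reads. The aligner, counting program, genome build and strand setting are not given in the sources used here. Their own comparisons, deposited as FPKM, log2 ratios, p-values and FDR of the genes they called, were not used.

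The members and lists were chosen with earlier results of these data known. Identifiers were matched to the RefSeq annotation of TAIR10.1 (25670 matched) for names, families and the order of the genes in the count table, and no coordinates are given. Closest paralogs were the best blastp hits of the longest protein of each gene (e-value limit 1e-05). Levels are CPM after TMM scaling. R 4.3.3 with edgeR 4.0.16 (filterByExpr, glmQLFit, glmQLFTest, Benjamini-Hochberg over 19327 genes) was fitted to all 12 libraries with 1 coefficient per group and no block, and calls needed an adjusted p under 0.05 and a log2 fold change beyond 1 in either direction. limma 3.58.1 and DESeq2 1.42.0 were also used, the latter as an alternative. The steps were tested on simulated data.

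Replicate numbers come from the sample titles. Deviations from the group means of same-numbered Or-1 libraries correlated at 0.305, 0.296 and 0.445, and those of differently numbered ones at -0.333 to 0.0855, so the numbers were taken to pair the libraries. The main fit and the fits that left out a library did not use this pairing, and the fits with the replicate block did.

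The genes named were the 10 members of highest CPM, the called members, neighbouring members, NLR members, listed genes of natural variation, genes nearest the limits and the paralogs or neighbours set beside them. WAKL2, AT1G35710, AT1G60110, TPS08, TT10, DMT2, FDM2, TIF3C2, AT2G19365, AT4G37850, AT1G34317, AT1G05090, AT5G39180, AT1G32010, AT5G38190, AT1G65370, AT1G52560, AT2G15340 and the uncalled DC1 members were added after their values were seen. Alternatives were other scalings, filters, tests and limits, the replicate block and leaving out libraries.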

Additional observations from a re-analysis of the deposited data

How the results depend on the processing

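The number of genes depended on the limits. It was 36 with no read allowed in Rak-2 and 149 with up to 9 reads allowed, and 89 to 103 when any 1 library was left out. Of the NH4+ response in Or-1, 10 calls (4 higher, 6 lower) became 3 to 8 when an Or-1 library was left out, where the share of all genes called was 6.83% to 8.33%, with 2 to 3 higher and 1 to 5 lower, and the median log2 fold change lay between -0.30 and -0.07. With the replicate block, as the pairing of the numbers allows, 15 were called, 5 higher and 10 lower (all genes 10.2%), and with the block in the 6 Or-1 libraries alone, an alternative chosen after seeing the data, 14 (9 lower, all genes 10.6%). The block added AT1G65370, AT2G44390, AT4G10370, TT10 and newGene_520 to the calls and changed no other call. DESeq2 called 14 (5 higher, 9 lower, all genes 9.58%). The other scalings, no filter on low counts and the fit of the Or-1 libraries alone gave 9 to 11, or 10.1% to 12.4%. These fits called 7.44% to 8.90% of all genes. With the adjusted p alone 10 were called, or 11.2%, which was below the 15.9% of all genes called in this way. The causes were not tested.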
